A study of Mus musculus with 6 samples.

Results

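The Hippo pathway restrains growth through a kinase cascade that phosphorylates the coactivators YAP (*Yap1*) and TAZ (*Wwtr1*). Phosphorylated coactivators are held in the cytoplasm or degraded, while unphosphorylated ones enter the nucleus and act on DNA through the TEAD factors. In the early mouse embryo this switch separates the outer trophectoderm from the inner cells that give rise to embryonic stem cells. The 10 genes described here were chosen by name: the coactivators *Yap1* and *Wwtr1*, the DNA-binding partners *Tead1*, *Tead2* and *Tead3*, the kinases *Lats1* and *Lats2*, the angiomotins *Amot* and *Amotl2*, and the tumour suppressor *Nf2*. All 10 were found among the 22380 gene identifiers listed for each library.

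RNA was measured in 6 mouse embryonic stem cell (mESC) lines derived from separate embryos, of which 3 were *Ctrl* and 3 were *Tet iTKO*. Lines of both groups carried CreERT2 under the ubiquitin C promoter and a Rosa26 H2B-EGFP reporter that Cre switches on, and the *Tet iTKO* lines also carried floxed alleles of *Tet1*, *Tet2* and *Tet3*, the enzymes that oxidize 5-methylcytosine. Both groups, controls included, received 1 µM 4-hydroxytamoxifen, called tamoxifen in the labels, for 2.5 days. They grew for 4 more days, so the cells were taken at day 6.5. Cultures were kept in 2i medium on feeder fibroblasts, and live cells positive for EGFP and CD326 and negative for Thy1.2 were sorted.

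Normalized counts summed to between 4210784 and 4219665 in *Ctrl* and between 3964824 and 3996522 in *Tet iTKO* libraries. Gene totals of the targeted genes were 682 to 716 in *Ctrl* and 753 to 895 in *Tet iTKO* for *Tet1*, 170 to 249 and 211 to 268 for *Tet2*, and 13 to 28 and 3 to 10 for *Tet3*. Only some exons were floxed, so a total over the gene does not check the deletion of *Tet1* or *Tet2*. All 7 stem cell markers listed were expressed in every library, from a lowest value of 290 for *Zfp42* to a highest of 5804 for *Pou5f1*. *Epcam* encodes CD326, a marker used for the sort, so its presence was selected for. Of these 7, *Esrrb*, *Klf4* and *Epcam* were called higher in *Tet iTKO* (log2 fold changes 0.29, 0.32 and 0.45), *Pou5f1*, *Nanog* and *Zfp42* were called lower (-0.29, -0.30 and -0.35), and *Sox2* was not called (-0.05). After the correction for GC content and length described below, 1 of the 7 was called higher (*Epcam*) and 1 lower (*Pou5f1*). Across all 10524 genes with a mean of at least 10, limma called 1731 higher (16.4%) and 1934 lower (18.4%) in *Tet iTKO* at a Benjamini-Hochberg adjusted p below 0.05.

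Sequence upstream of the RefSeq start (GRCm38.p6) is shown for both members that passed the test, *Amotl2* and *Tead2*, and for *Yap1*, whose window is among the richest in CpG. The window was the 250 bases before the start, cut to its longest stretch outside exons of that gene in GENCODE M21. Capitals mark GGAATG or its reverse complement CATTCC, the core of the motif that TEAD factors bind, searched on both strands.
Yap1: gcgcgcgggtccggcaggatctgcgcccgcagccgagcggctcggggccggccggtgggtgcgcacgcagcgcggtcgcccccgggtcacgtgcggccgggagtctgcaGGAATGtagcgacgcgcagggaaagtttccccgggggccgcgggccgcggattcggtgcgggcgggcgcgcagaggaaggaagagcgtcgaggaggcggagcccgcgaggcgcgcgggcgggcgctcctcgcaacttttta
Tead2: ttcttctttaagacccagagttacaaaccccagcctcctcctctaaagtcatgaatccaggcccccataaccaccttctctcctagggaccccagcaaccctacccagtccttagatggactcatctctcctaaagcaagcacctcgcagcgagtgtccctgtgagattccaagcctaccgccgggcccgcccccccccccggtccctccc
Amotl2: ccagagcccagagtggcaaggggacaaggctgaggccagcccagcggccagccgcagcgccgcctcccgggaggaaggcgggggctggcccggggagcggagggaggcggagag

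The *Yap1* stretch lies at chr9:8004597-8004846 on the minus strand, the *Tead2* stretch at chr7:45215542-45215752 and the *Amotl2* stretch at chr9:102717554-102717667, both on the plus strand. RefSeq windows of 250 bases matched 9 of the 10 members, with 14 windows in all. The motif was found in 6 of these windows, belonging to *Yap1*, *Wwtr1*, *Tead3* and *Amotl2*, and in 12.6% of all 32851 windows. Both *Wwtr1* windows overlap and hold the same match, 136 and 170 bases before their starts, so the 6 windows are not independent. In *Amotl2* the match lay 65 bases before the start, in a part that M21 annotates as exon. All 250 bases of the *Amotl2* window lie inside the gene in M21, which begins at chr9:102716672, and those of *Amot* lie inside its gene too. The full *Yap1* window held 44 CpG dinucleotides, more than 99.5% of all windows, against 21 for *Amotl2*, 7 for *Tead2*, 3 for *Amot* and a median of 6 over all windows. Methylation and factor binding were not analysed here, and a match of letters is a description only.

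Of the 9 members with a mean of at least 10, *Amotl2* and *Tead2* were called higher in *Tet iTKO* and none was called lower, against 16.4% and 18.4% of all genes tested. The median log2 fold change was 0.16 over these 9 genes and 0.01 over all genes tested. *Amot* had too few counts to be tested. Groups did not overlap for 3 of the 9, *Amotl2*, *Tead2* and *Nf2*, all higher in *Tet iTKO*, and 21.2% of all genes tested were higher without overlap. These calls depended on the joint correction for GC content and transcript length, described below.

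**Figure D1:**
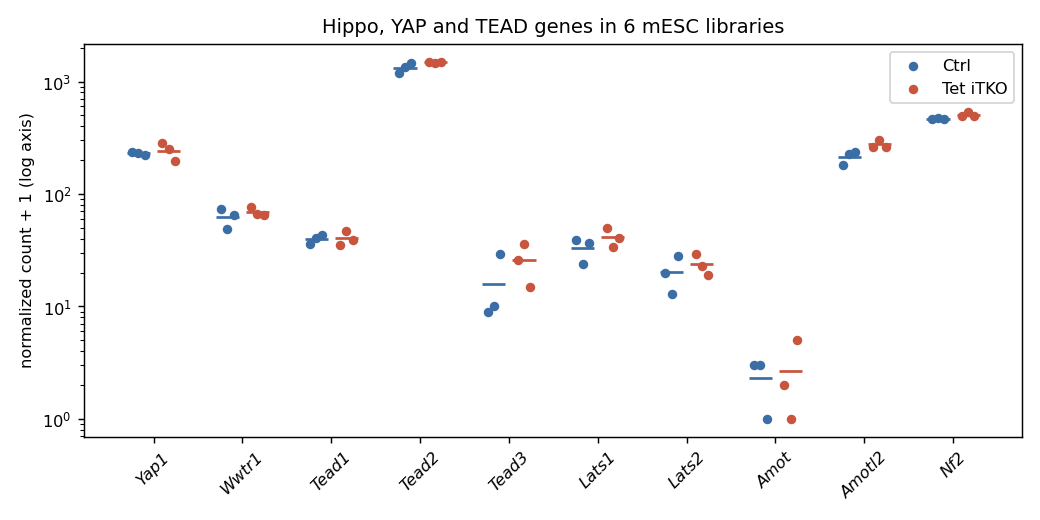
Normalized counts plus 1 (log axis) of the 10 members in each library, with 3 *Ctrl* and 3 *Tet iTKO* points per gene and a bar at each group's mean. *Amotl2*, *Tead2* and *Nf2* are the genes whose groups do not overlap, and *Amot* lies near 0 in both groups.

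*Yap1* encodes the coactivator YAP. The *Ctrl* lines had 234, 232 and 222 normalized counts of it, and the *Tet iTKO* lines 282, 250 and 195. The *Tet iTKO* lines lay on both sides of the controls, and the log2 fold change was 0.06 (95% interval -0.19 to 0.32, adjusted p = 0.74, limma). *Wwtr1*, which encodes the paralogous coactivator TAZ, had 73, 48 and 64 in *Ctrl* and 75, 65 and 64 in *Tet iTKO*. Its groups overlapped as well, with a log2 fold change of 0.16 (-0.32 to 0.63, adjusted p = 0.64, limma). Per kb of transcript, *Yap1* made up 78.3% to 84.5% of the summed *Yap1* and *Wwtr1* level in *Ctrl* and 77.4% to 81.2% in *Tet iTKO*.

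Among the TEAD factors, *Tead2* had by far the most RNA. Its counts were 1181, 1354 and 1451 in *Ctrl* and 1482, 1470 and 1495 in *Tet iTKO*. Every *Tet iTKO* line lay above every *Ctrl* line, the nearest pair being 1470 and 1451, and the controls were spread more widely (SD 137 against 12.5, n = 3 each). The log2 fold change was 0.16 (0.03 to 0.29), a 1.12-fold difference, with an adjusted p of 0.048 in limma. Leaving out 1 library at a time kept this call in 1 of 6 fits, that without *Ctrl* 3 (log2 fold change 0.23, adjusted p = 0.0094, limma), and without *Ctrl* 1 the value was 0.08 (adjusted p = 0.35, limma). In GENCODE M21 the 3' end of *Tead2* overlaps *Cd37* on the other strand, and Smart-Seq2 keeps no strand, so reads of the shared part cannot be told apart.

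*Tead1* had 35, 40 and 42 in *Ctrl* and 34, 46 and 38 in *Tet iTKO*, a log2 fold change of 0.01 (-0.59 to 0.60, adjusted p = 0.99, limma). *Tead3* had 8, 9 and 28 in *Ctrl* and 25, 35 and 14 in *Tet iTKO*. The groups overlapped, with *Ctrl* 3 above *Tet iTKO* 1 and 3. The log2 fold change of *Tead3* was 0.81 with a wide interval (-0.18 to 1.80, adjusted p = 0.20, limma), and it was 1.35 without *Ctrl* 3 (adjusted p = 0.046, limma). *Tead4*, the family member known for its role in trophectoderm, had 60, 88 and 122 in *Ctrl* and 57, 96 and 65 in *Tet iTKO* (log2 fold change -0.28, -0.76 to 0.20, adjusted p = 0.38, limma).

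Per kb, *Tead2* made up 88.8% to 93.1% of the TEAD family in *Ctrl* and 89.9% to 93.6% in *Tet iTKO*. Its level of 391 ± 40.3 per kb in *Ctrl* (SD, n = 3) exceeded that of 90.7% of the genes tested when averaged over all libraries. In *Ctrl* the order per kb was *Tead2*, *Nf2* (98.4 ± 1.78), *Yap1* (55.0 ± 1.54), *Amotl2* (49.0 ± 6.68), *Tead4*, *Wwtr1* (13.1 ± 2.70), *Tead3* (5.41 ± 4.06), *Lats1* (4.49 ± 1.13), *Tead1* (3.91 ± 0.362), *Lats2* (3.72 ± 1.45) and *Amot* (0.192 ± 0.166). Neighbours whose *Ctrl* ranges overlapped were *Yap1* and *Amotl2*, *Tead3* and *Lats1*, *Lats1* and *Tead1*, and *Tead1* and *Lats2*.

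**Figure D2:**
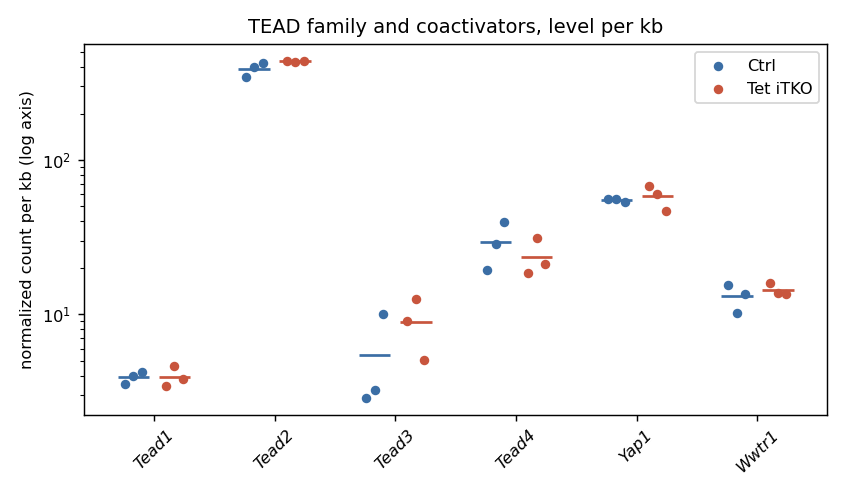
Normalized counts per kb of transcript (log axis) for *Tead1* to *Tead4* and the coactivators *Yap1* and *Wwtr1*, 3 libraries per group with a bar at the mean. *Tead2* lies above the other family members in every library of both groups.

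The LATS kinases phosphorylate YAP and TAZ directly. *Lats1* had 38, 23 and 36 in *Ctrl* and 49, 33 and 40 in *Tet iTKO*, a log2 fold change of 0.34 (-0.31 to 0.98, adjusted p = 0.44, limma). *Lats2* had 19, 12 and 27 in *Ctrl* and 28, 22 and 18 in *Tet iTKO*, a log2 fold change of 0.27 (-0.59 to 1.12, adjusted p = 0.66, limma). Both pairs of groups overlapped, and at counts this low the intervals allow ratios from 0.81 to 1.97 for *Lats1* and from 0.67 to 2.18 for *Lats2*. In GENCODE M21 *Lats2* shares sequence with *Gm49361* on the same strand, and *Yap1* and *Tead1* overlap genes on the other strand. Reads of these shared parts cannot be assigned with certainty. Overlaps on the same and on the other strand can affect a count differently, and the effect was not tested. *Nf2* encodes merlin, a membrane scaffold that brings LATS kinases to their activators. Its counts were 459, 474 and 460 in *Ctrl* and 490, 536 and 493 in *Tet iTKO*. All *Tet iTKO* lines were higher, but the log2 fold change of 0.12 (-0.05 to 0.30) did not pass the test (adjusted p = 0.28, limma).

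Angiomotins bind YAP and hold it at junctions and in the cytoplasm, and *Amotl2* is itself widely used as a YAP/TEAD target. *Amotl2* had 179, 224 and 233 in *Ctrl* and 263, 300 and 262 in *Tet iTKO*. All *Tet iTKO* lines lay above all controls. The log2 fold change was 0.38 (0.13 to 0.63), a 1.30-fold difference (adjusted p = 0.014, limma). The call was lost without *Ctrl* 1 (0.26, adjusted p = 0.11, limma) and without *Tet iTKO* 2 (0.32, adjusted p = 0.092, limma). *Amot* had 2, 2 and 0 in *Ctrl* and 1, 0 and 4 in *Tet iTKO*, at or near the floor of 3 normalized counts, so no difference was detectable at this depth. *Amotl1*, the remaining family member, had 17, 25 and 14 in *Ctrl* and 34, 40 and 41 in *Tet iTKO* (log2 fold change 1.03, 0.30 to 1.77, adjusted p = 0.025, limma). Its call held in 3 of 6 fits that left out a library and in 0 of 4 of the loess versions described below (0.52 to 0.66), and it was also lost with quantile scaling (0.78, adjusted p = 0.088, limma) and without the filter on low counts (adjusted p = 0.057, limma). *Amotl2* made up 94.4% to 97.2% of the angiomotin level per kb in *Ctrl* and 92.2% to 93.9% in *Tet iTKO*.

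Fold changes in these libraries moved with GC content and with expression level. Among genes with a mean from 10 to 50, the median log2 fold change was 0.00 in the lowest of 3 equal classes of transcript GC content and 0.56 in the highest. Among genes with a mean of at least 1000 the medians were -0.18 and -0.03. *Tead2*, with a transcript of 57.9% GC, and *Amotl2*, with 56.6%, both lie in the highest class, where the median was -0.03 for genes at the level of *Tead2* and 0.03 for genes at the level of *Amotl2* (a mean from 200 to 1000).

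A loess on GC content and log2 length, fitted per library, changed the result for both called members. It held no term for expression level, although the rise with GC content was largest at low counts. GC content and length were corrected together, and their separate parts were not tested. With degree 1 and the gaussian family, *Tead2* had a log2 fold change of -0.26 and was called lower (adjusted p = 0.00098, limma), and *Amotl2* had -0.05 (adjusted p = 0.79, limma). After this correction 0 members were called higher and 1 lower, against 9.62% and 19.4% of all genes tested, and the median over all genes moved from 0.01 to -0.06. Over 4 versions of the loess, 3 of them added after the members' values were known, *Tead2* ranged from -0.27 to -0.11 and was called lower in 2 of 4, both gaussian. *Amotl2* ranged from -0.05 to 0.08 and was called in 0 of 4. Of all genes, the degree 2 gaussian version called 9.45% higher and 18.7% lower, the degree 1 symmetric version 12.4% and 13.3%, and the degree 2 symmetric version 12.3% and 13.1%. Thus the direction of *Tead2* and the call of *Amotl2* both depended on this correction, and which treatment is closer to the RNA content of the cells was not tested. A correction that also takes account of expression level was not tested either.

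**Figure D3:**
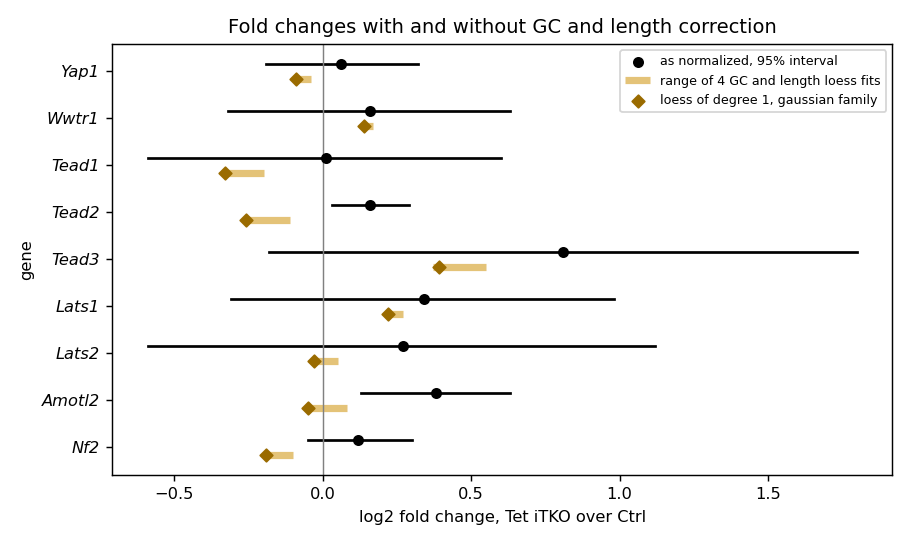
Log2 fold change (*Tet iTKO* over *Ctrl*) of the 9 members tested. Black points and lines give limma estimates with 95% intervals, diamonds the loess of degree 1 with the gaussian family, and gold bars the range over 4 loess versions. *Tead2* moves from 0.16 to below 0 in every version.

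**Figure D4:**
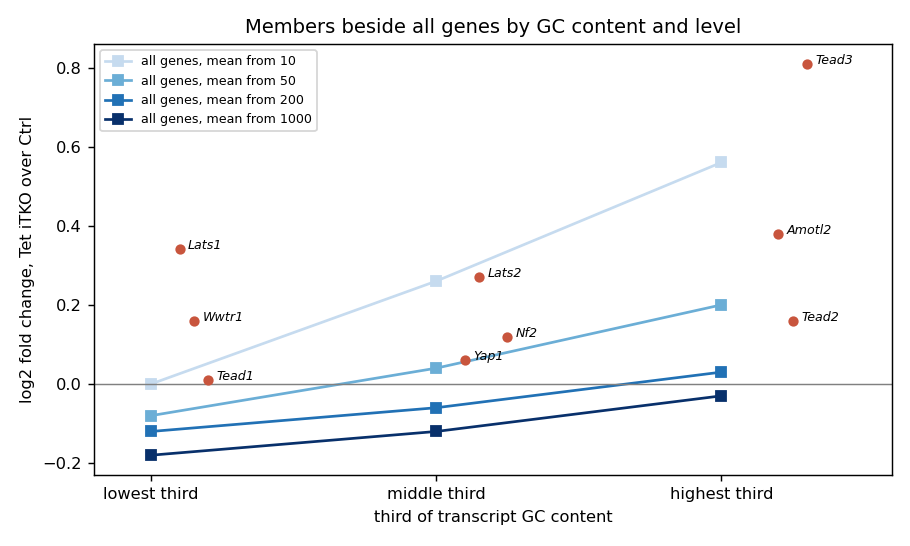
Median log2 fold change of all genes tested by transcript GC content in 3 equal classes (x axis) and by mean normalized count (lines from 10, 50, 200 and 1000), with the 9 members as red points placed beside the GC class they belong to. The lines rise with GC content, most at low counts.

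Ratios of paralogs within a library were compared on the log2 scale of normalized counts per kb plus 1. The ratio of *Tead2* to *Tead1* was 6.32 ± 0.04 in *Ctrl* and 6.47 ± 0.18 in *Tet iTKO*, and that of *Wwtr1* to *Yap1* was -2.00 ± 0.29 and -1.92 ± 0.18 (SD, n = 3). *Tead3* to *Tead1* changed by 0.72 and *Lats2* to *Lats1* by -0.07. *Amotl2* to *Amot* changed by 0.34, but *Amot* lay between 0 and 0.575 per kb, below the 1 that was added, so this value follows *Amotl2* and says nothing of a balance between both. Groups overlapped for all 5 ratios, with p between 0.2 and 0.8 in two-sided exact permutation tests and 0.8 for each after Benjamini-Hochberg adjustment. With 3 lines against 3 the smallest p this test allows is 0.1, so it could not reach 0.05.

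Beyond the 10 members, 85 genes of the wider pathway were listed and 70 could be tested. Of these, 25 were called higher and 4 lower, against 16.4% and 18.4% of all genes tested, and their median log2 fold change was 0.22. After the gaussian loess of degree 1 the counts were 10 higher and 9 lower, against 9.62% and 19.4% of all genes, with a median of -0.01. The counts of each group below are to be read beside these same shares.

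Among the 12 kinases and adaptors around LATS, 2 were called higher and none lower, and 0 were called in either direction after that loess. *Mink1*, a MAP4K-family kinase that can act on LATS, had 303, 256 and 274 in *Ctrl* and 446, 396 and 415 in *Tet iTKO* (log2 fold change 0.59, adjusted p = 1.5e-05, limma), and 0.05 after the gaussian loess of degree 1. The MST kinases *Stk3* (0.28) and *Stk4* (0.14), their adaptor *Sav1* (0.20) and the LATS cofactors *Mob1a* (-0.27) and *Mob1b* (0.22) did not pass the test.

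Of 9 upstream scaffolds tested, 4 were called higher and none lower, against 1 higher and 1 lower after the gaussian loess of degree 1. *Limd1*, a LIM protein that binds LATS, had 85, 106 and 127 in *Ctrl* and 161, 175 and 176 in *Tet iTKO* (log2 fold change 0.70, adjusted p = 0.00085, limma). It was still called higher in all 4 loess versions, where it ranged from 0.42 to 0.50. *Ptpn14*, a phosphatase that binds YAP, had 45, 85 and 61 against 121, 117 and 92 (0.82), and ranged from 0.21 to 0.39 with no call in the loess versions. *Ajuba*, a LIM protein like *Limd1*, had a log2 fold change of 0.07 that was not called. The median without the loess was 0.03 among genes of its GC class and level (a mean from 200 to 1000). *Ajuba* was called lower in all 4 loess versions (-0.39 to -0.23), which held no term for expression level. *Wwc1*, which encodes KIBRA, had a value of 0.20 without a call. In the STRIPAK complex, which carries phosphatase activity against MST kinases, 2 of 10 were called higher and 2 lower, against 0 and 2 after that loess. *Mob4* had 248, 271 and 243 in *Ctrl* and 175, 164 and 152 in *Tet iTKO* (log2 fold change -0.63, adjusted p = 0.00013, limma), and stayed called at -0.34 in all 4 loess versions.

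Of 12 canonical YAP/TEAD targets tested, 4 were called higher and none lower (16.4% and 18.4% of all genes tested). After the gaussian loess of degree 1 the counts were 3 higher and 1 lower (9.62% and 19.4% of all genes). The lower one was *Dock5* (-0.48), called lower in 1 of 4 loess versions (-0.48 to -0.33). *Igfbp3*, an IGF-binding protein, had 25, 22 and 43 in *Ctrl* and 56, 64 and 65 in *Tet iTKO* (log2 fold change 1.07, adjusted p = 0.0043, limma), and *Asap1*, an ARF GTPase-activating protein, had 56, 79 and 59 against 116, 111 and 120 (0.84). Both remained called in all 4 loess versions. *Gadd45a* was not called without the loess (0.26, adjusted p = 0.14, limma) but was called higher in all 4 versions (0.51 to 0.58). *Arhgef17* had a value of 0.99 that fell to 0.13 after the gaussian loess of degree 1, and *Ptpn14* belongs to this group too. The most used targets did not pass the test: *Ccn1* had 75, 91 and 107 in *Ctrl* and 87, 103 and 65 in *Tet iTKO* (-0.11), and *Ccn2* had 60, 41 and 61 against 61, 51 and 67 (0.15). *Ankrd1* was at 0 or 1 in every library.

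Of 11 genes for YAP degradation and retention, 5 were called higher and 2 lower, against 3 and 2 after that loess. *Csnk1e*, a casein kinase, had 172, 176 and 233 in *Ctrl* and 236, 333 and 301 in *Tet iTKO* (log2 fold change 0.58, adjusted p = 0.00074, limma). It had 0.26 after the gaussian loess of degree 1 (adjusted p = 0.13, limma) and was called in 2 of 4 loess versions. Of 15 genes of apicobasal polarity and junctions, 9 were called higher and none lower, against 3 higher and 2 lower after the gaussian loess of degree 1 (9.62% and 19.4% of all genes). The genes called lower there were the polarity genes *Scrib*, which moved from 0.40 and a higher call to -0.33, and *Pard3*, which moved from -0.08 to -0.44. Each was called lower in 2 of 4 loess versions, with ranges of -0.38 to -0.14 for *Scrib* and -0.44 to -0.34 for *Pard3*. The loess held no term for expression level, and without it the median was 0.03 among genes of the GC class and level of *Scrib*. The tight junction scaffold *Tjp1* had 92, 65 and 88 against 119, 138 and 143 (0.71) and the polarity gene *Crb3* 109, 127 and 108 against 223, 159 and 162 (0.64), and both stayed called in all 4 loess versions. *Llgl1*, a basolateral polarity gene, had 0.69 and was called in 2 of 4. The nuclear cofactor *Vgll4*, a TEAD competitor of YAP, had a value of -0.21 without a call, and *Tead4*, the other gene tested of 5 nuclear partners, was called lower in 2 of 4 loess versions (-0.70 to -0.53).

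**Figure D5:**
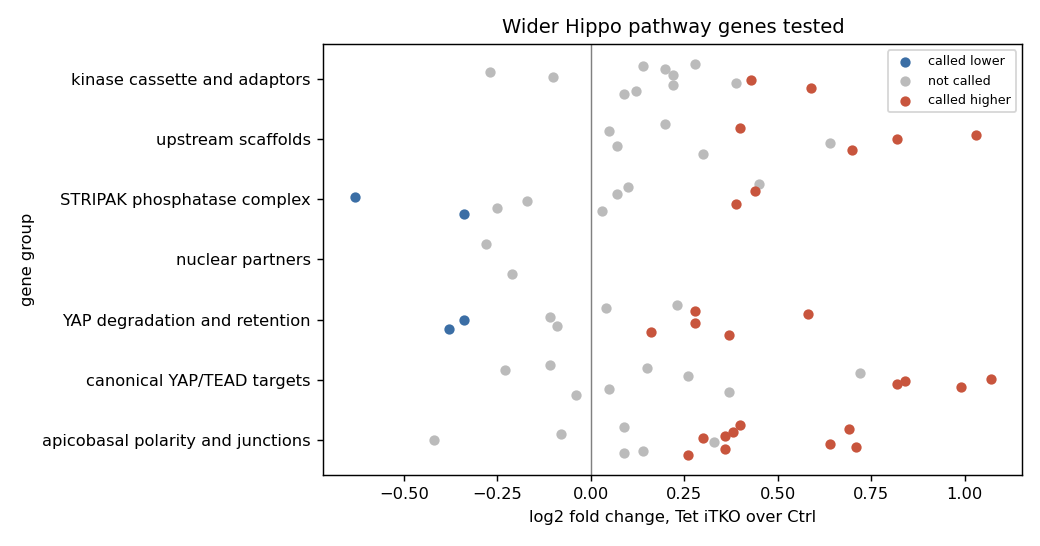
Log2 fold change (*Tet iTKO* over *Ctrl*, x axis) of the 70 wider pathway genes tested, 1 point per gene and group, with *Ptpn14* in both groups that list it. Red points were called higher, blue lower and grey neither, without the correction for GC content and length.

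Some markers of other cells that such cultures could hold differed between the groups, in either direction, and others did not. Of 18 feeder fibroblast markers 9 were tested, with 3 called higher and 1 lower in *Tet iTKO*. *Col1a1* had 181, 170 and 150 in *Ctrl* and 304, 281 and 349 in *Tet iTKO*, while *Vim* had 1038, 1078 and 1057 against 463, 496 and 503. *Col1a1* was called in 2 of 4 loess versions (0.24 to 0.43). The other collagens called higher, *Col1a2* and *Col3a1*, stayed called in all 4, and so did *Vim* as lower. The summed list without *Vim*, which stem cells also express, was 368 to 401 in *Ctrl* and 625 to 699 in *Tet iTKO*, and without collagens as well it was 110 to 154 and 119 to 170. Other genes of that list were detected in both groups: *Thy1* at 30 to 46 in *Ctrl* and 23 to 47 in *Tet iTKO*, *Acta2* at 45 to 56 and 42 to 50, *Tagln* at 13 to 22 and 34 to 38, *Fbn1* at 1 to 2 and 6 to 15, and *Dcn* at 2 to 15 and 1 to 6. *Postn* and *S100a4* stayed between 0 and 4. Of 10 trophectoderm markers 4 were tested, with 2 called higher and 1 lower. *Krt8* had 17, 9 and 19 against 83, 105 and 90, and *Krt18* 15, 20 and 12 against 91, 64 and 92. *Tfap2c*, called lower, had 745, 699 and 672 against 580, 599 and 579. These calls held in all 4 loess versions. *Eomes* had 10, 27 and 23 against 31, 36 and 35, higher without overlap but not called. Untested members of that list went either way at low counts. *Cdx2* had 0, 0 and 0 against 1, 5 and 2, and *Hand1* 0, 0 and 0 against 6, 5 and 6, both without overlap. More genes lay above 0 in every *Tet iTKO* library (14024 to 14363) than in any *Ctrl* library (13431 to 13539). The share of all genes at such low counts that were higher without overlap was not computed. *Krt7* had 7, 13 and 2 against 5, 2 and 0, and *Gata3* 10, 10 and 1 against 4, 5 and 4, both with overlap. Of 7 primitive endoderm markers 2 were tested: *Gata4* had 2, 7 and 10 against 21, 12 and 27 and was called higher, a call that held in 3 of 6 fits that left out a library and in 0 of 4 loess versions, and was lost with quantile scaling, without trend and without the filter on low counts. *Sox7* had 17, 24 and 7 against 2, 9 and 9 and was not called. The part of these other cells in the values of *Amotl2* and *Tead2* was not tested, and in bulk RNA a changed share of cells cannot be told apart from a changed level per cell.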

How the data were processed

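The members and gene lists were chosen with earlier results of these data known. Values deposited by the authors are of the unit score: per the labels and methods, the authors made Smart-Seq2 libraries with paired reads of 50 bases, aligned them with STAR, counted reads per gene with HTSeq 0.7.1 and divided the counts by DESeq2 1.26.0 size factors (R 3.5.2), and the values are whole numbers after rounding. HTSeq was run as stranded on a protocol that keeps no strand. The submitters' processing notes name mm9; no coordinate from the files is used. GENCODE M21 (GRCm38) paired 20775 of 22380 identifiers with a symbol, length and GC content, the last from the longest coding transcript; 1605 had none.

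The test was that of limma 3.58.1 (R 4.3.3, eBayes with trend) on log2(value + 1) over genes with a mean of at least 10, so fold changes of low genes are understated. Called means a Benjamini-Hochberg adjusted p below 0.05 over all genes tested. A value of 3 was taken as the floor; the reads behind each value were not recomputed, and floors cover counting error only. Ratios used exact permutation tests (Python 3.11.15). The fit was tested on simulated data. Named beyond the members were called genes of each wider list with an absolute log2 fold change of at least 0.5, up to 4 per list by adjusted p. A fixed set including *Tead4*, *Stk3*, *Ccn1*, *Ccn2* and *Ankrd1*, and the 2 highest markers of each list, were named too. Other genes named, among them *Ajuba*, *Scrib*, *Pard3*, *Dock5*, *Gadd45a* and further markers, were added after values were seen. Alternatives were other pseudocounts (0.5, 4), filters (none, 50) and scalings (trimmed mean of M values, quantile), eBayes without trend, a replicate block, each library left out, and a loess on GC content and length (span 0.3). The degree and family of the loess had not been fixed; degree 1 with the gaussian family was run first and kept as the planned version, and 3 other versions were added after the members' values under all 4 had been seen.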

Additional observations from a re-analysis of the deposited data

How the results depend on the processing

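Of 728 values of the 39 named genes under alternatives, 601 kept their direction and side of the threshold, 72 lost a call, 6 gained one and 49 changed sign. Members called higher, 2 as reported, fell to 1 without the filter on low counts and with the trimmed mean of M values, and to 0 with eBayes without trend and in all 4 loess versions; with each library left out they ranged from 0 to 3. Members called lower rose from 0 to 1 in both gaussian versions of the loess. Without trend, 1075 genes were called higher and 1217 lower over all genes, and 11 wider pathway genes higher. With the gaussian loess of degree 1, 1006 genes over all were higher, and 10 wider genes were higher and 9 lower; with the replicate block added, 1009, 10 and 9. The other loess versions were chosen after seeing the data: degree 2 gaussian gave 988 genes higher over all, with 10 wider genes higher and 8 lower, and both symmetric versions gave 14 wider genes higher. The cause was not tested.

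Signs changed under the loess (degree 1 gaussian, degree 1 symmetric, degree 2 gaussian and degree 2 symmetric, in this order) for *Yap1* (-0.09, -0.04, -0.08, -0.04), *Tead1* (-0.33, -0.24, -0.24, -0.20), *Tead2* (-0.26, -0.11, -0.27, -0.13), *Nf2* (-0.19, -0.10, -0.18, -0.10) and *Wwc1* (-0.27, -0.14, -0.25, -0.13), and under the gaussian versions only for *Lats2* (-0.03, -0.03), *Amotl2* (-0.05, -0.03) and *Esrrb* (-0.05, -0.04). The loess with replicate block gave the same rounded values as degree 1 gaussian for these 8 genes. *Tead1* was -0.02 with the trimmed mean of M values and -0.18 with quantile scaling, under which *Lats2* was -0.04, *Sav1* -0.01 and *Mob1b* -0.01. With each library left out, *Yap1* ranged from -0.05 to 0.21, *Wwtr1* from -0.01 to 0.29, *Tead1* from -0.11 to 0.10, *Lats2* from -0.02 to 0.53, *Mob1b* from -0.00 to 0.47, *Vgll4* from -0.50 to 0.26, *Ccn1* from -0.26 to 0.07, *Ccn2* from -0.03 to 0.26, the ratio of *Wwtr1* to *Yap1* from -0.08 to 0.19 and that of *Lats2* to *Lats1* from -0.18 to 0.07.

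The replicate numbers do not pair the lines, which came from different embryos: correlations of deviations between *Ctrl* and *Tet iTKO* lines ran from -0.0067 to 0.0108. With the replicate block alone, 1762 genes were called higher and 1980 lower, 2 members and 25 wider genes higher, and no named gene changed its call.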
